A study of Mus musculus with 9 samples.

Results

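The aminoacyl-tRNA synthetase genes are the 38 genes, out of 52636 in the count table, whose symbol is a single capital letter followed by ars with or without a final 1 or 2, together with *Farsa*, *Farsb*, *Eprs* and *Tarsl2*. They were selected by symbol, and 21 of them encode cytosolic enzymes while 17, with symbols ending in 2, encode mitochondrial enzymes (*Tarsl2* is cytosolic). All 38 passed the filter on low counts, with at least 139 counts in every library. RNA was taken from the left ventricle of 16-week-old C57BL6J mice, and 5 libraries (1 to 5) are labelled WT and 4 (6 to 9) are labelled KO. In the KO, a floxed *Vdac2*, the gene of an outer mitochondrial membrane porin, is removed by Cre driven from the αMHC promoter, so that cells of the ventricle other than cardiomyocytes keep the gene. The WT were littermates that carried either the floxed allele or Cre.

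Each synthetase joins an amino acid to its tRNA, the step that supplies the ribosome. The nucleus encodes a set of enzymes for the cytosol and a set that is imported into mitochondria, where they charge the tRNAs used to translate the mitochondrial genome. *Gars* and *Kars* each serve both compartments from a single gene, and several of the cytosolic enzymes are held in a multi-synthetase complex on the scaffolds encoded by *Aimp1*, *Aimp2* and *Eef1e1*. Many cytosolic synthetase genes are known targets of ATF4, the transcription factor of the amino acid and integrated stress response, which acts through C/EBP-ATF response elements.

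Levels are given as CPM, read counts scaled to the TMM-normalized library size, and depth ran from 27345052 to 44673988 counts per library. From library 1 to library 5 (labelled WT), *Vdac2* measured 20.2, 366, 58.5, 365 and 21.3 CPM, and from library 6 to library 9 (labelled KO) it measured 384, 20.5, 421 and 19.1 CPM. The deleted gene therefore went against the label in libraries 1, 3 and 5 (low) and in libraries 6 and 8 (high), and between labels its log2 fold change was 0.35 with a standard error of 1.19 (edgeR quasi-likelihood test, adjusted p = 0.92). All libraries labelled WT came from lane 1 and all labelled KO from lane 2, and *Ddx3y* of the Y chromosome was at 126 to 170.3 CPM in the former and at most 0.0264 CPM in the latter, so that lane, sex and label cannot be told apart. Library 3 stood apart, with a summed level of 6 ventricular cardiomyocyte markers (*Myh6*, *Tnnt2*, *Ryr2*, *Actc1*, *Myl2* and *Myl3*) of 12549 CPM where the other libraries had 41709 to 59289 CPM, and a sum of 5 fibroblast markers (*Col1a1*, *Dcn*, *Pdgfra*, *Lum* and *Postn*) of 3946 CPM against 877 to 1342 CPM. In bulk tissue, fewer cells of a type and less RNA per cell cannot be told apart. The synthetase genes are described in single libraries first, with libraries 1, 5, 7 and 9 (*Vdac2* under 100 CPM) set beside 2, 4, 6 and 8 (over 300 CPM) and library 3 kept apart. These libraries were picked by the level of *Vdac2*, they are not groups of the study and no genotype is read from them, so their values are a description without a test. Each side holds 2 libraries of either label.

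Relative to each gene's median over the 9 libraries, the cytosolic and the mitochondrial synthetase genes stood in a different order from library to library. The median over the cytosolic genes, on the log2 scale, was 0.051, -0.13, 0.28, -0.074 and 0.14 in libraries 1 to 5 and -0.098, 0.0, -0.024 and 0.12 in libraries 6 to 9. The median over the mitochondrial genes was -0.12, 0.013, -0.67, 0.0 and -0.12 in libraries 1 to 5 and 0.048, -0.047, 0.19 and 0.0095 in libraries 6 to 9. The cytosolic median was thus above the mitochondrial median in libraries 1, 3, 5, 7 and 9, by 0.047 in library 7 to 0.96 in library 3, and below it in libraries 2, 4, 6 and 8, with a difference of -0.074 in library 4 to -0.22 in library 8. With scaling by total counts only, this order was the same but the sizes moved. Library 3 was then at 0.70 for the cytosolic and -0.23 for the mitochondrial genes. Library 7 was at 0.0 and -0.0097, so that its medians nearly met.

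**Figure D1:**
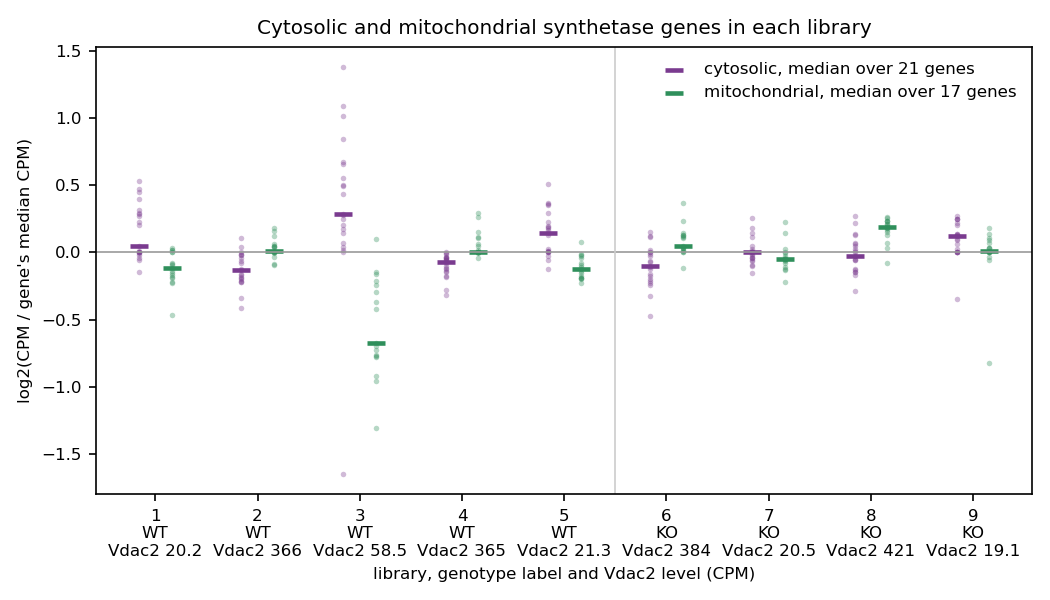
Each point is a synthetase gene in a library, plotted as log2 of its CPM over its own median CPM in the 9 libraries (vertical axis), and the bars are the medians over the 21 cytosolic and the 17 mitochondrial genes. The cytosolic bar lies above the mitochondrial bar in libraries 1, 3, 5, 7 and 9, where *Vdac2* was between 19.1 and 58.5 CPM, and the gap is widest in library 3.

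In 8 of the 21 cytosolic genes the values of libraries 1, 5, 7 and 9 all lay above those of libraries 2, 4, 6 and 8, an order held by 7.16% of all tested genes, and in 0 of the 21 all lay below (4.93% of all tested genes). Of the 17 mitochondrial genes, 0 had the first order and 3 had the second. The 8 cytosolic genes were *Sars*, *Gars*, *Mars*, *Eprs*, *Cars*, *Aars*, *Nars* and *Yars*, and the 3 mitochondrial genes were *Aars2*, *Fars2* and *Mars2*. With library 3 set beside 1, 5, 7 and 9, the counts were again 8 cytosolic genes above (5.98% of all tested genes) and 3 mitochondrial genes below (4.41%). Among the libraries labelled WT, 18 cytosolic genes were higher in 1 and 5 than in 2 and 4 (24.5% of all tested genes), and 13 mitochondrial genes were lower (23.3%). Among those labelled KO, 9 cytosolic genes were higher in 7 and 9 than in 6 and 8 (20.7%), and 9 mitochondrial genes were lower (17.1%). The rule that selected these libraries used the level of *Vdac2*, so nothing beyond a description is read from these counts.

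The summed markers of other cells differed between the same libraries. The fibroblast sum was 1271 to 1342 CPM in libraries 1, 5, 7 and 9 and 877 to 1154 CPM in 2, 4, 6 and 8, and the sum of 4 macrophage markers (*Adgre1*, *Cd68*, *C1qa* and *Csf1r*) was 179 to 246 CPM and 120.5 to 173 CPM. The ventricular cardiomyocyte sum was 41709 to 47929 CPM in the former and 49642 to 59289 CPM in the latter. The lymphocyte sum (*Cd3e*, *Cd79a* and *Ptprc*, of which *Cd3e* was at 0 in a library) was 36.6 to 47.5 CPM and 22.4 to 33.5 CPM. The sums overlapped for endothelial markers (*Pecam1*, *Cdh5*, *Kdr* and *Tie1*; 396 to 520 and 510.1 to 606 CPM) and for smooth muscle and pericyte markers (*Acta2*, *Myh11* and *Rgs5*; 1110 to 1353 and 1113 to 1320 CPM), and the atrial sum (*Myl7*, *Myl4* and *Sln*) was at most 4.13 CPM in any library, with *Sln* at 0 in a library. The part of these markers in the levels of the synthetase genes was not tested. The fibroblast, macrophage and ventricular cardiomyocyte markers were each above 0 in every library.

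Of the cytosolic genes, *Sars* (ENSMUSG00000068739, chromosome 3 of GRCm38 from 108424865 to 108445209), which encodes seryl-tRNA synthetase, was at 92.6, 57.6, 76.7, 61.5 and 87.8 CPM over libraries 1 to 5, then 55.3, 78.1, 62.9 and 81.8 CPM over libraries 6 to 9. Its 5 highest values were in libraries 1, 5, 9, 7 and 3, and the lowest of these was 76.7 CPM against 62.9 CPM for the highest of the rest. *Gars* (ENSMUSG00000029777, chromosome 6 from 55038007 to 55079500), the glycyl-tRNA synthetase gene, was at 114, 68.2, 168, 71.3 and 96.5 CPM over libraries 1 to 5, then 69.9, 79.0, 76.2 and 85.9 CPM over libraries 6 to 9. Here library 3 was highest and libraries 7 and 8 lay close together. *Eprs* (ENSMUSG00000026615, chromosome 1 from 185363044 to 185428360), whose product is a fused glutamyl- and prolyl-tRNA synthetase of the multi-synthetase complex, was at 346, 234, 302, 255 and 336 CPM over libraries 1 to 5, then 224, 263, 253 and 267 CPM over libraries 6 to 9. Libraries 1, 3 and 5 were well above the others of their label, while libraries 7 and 9 exceeded library 4 by less than the spread among libraries 2, 4, 6 and 8.

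*Aars* (ENSMUSG00000031960, chromosome 8 from 111033144 to 111057664), for alanine, was at 96.6, 69.1, 109.6, 71.4 and 99.6 CPM over libraries 1 to 5, then 67.8, 84.3, 70.4 and 77.7 CPM over libraries 6 to 9. Of the exon bases of *Aars*, 14.3% are shared with *Exosc6* on the same strand, and how reads there were assigned is not given in the sources used here. *Nars* (ENSMUSG00000024587), for asparagine, was at 121, 87.8, 146, 87.9 and 116 CPM over libraries 1 to 5, then 84.0, 99.5, 91.1 and 107 CPM over libraries 6 to 9. *Cars* (ENSMUSG00000010755, chromosome 7 from 143557230 to 143600090), for cysteine, was at 25.2, 16.3, 32.7, 17.0 and 23.1 CPM over libraries 1 to 5, then 16.4, 22.7, 18.9 and 20.6 CPM over libraries 6 to 9. In all of *Aars*, *Nars* and *Cars* library 3 was the highest of the 9 libraries and libraries 2, 4, 6 and 8 were the lowest.

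*Mars* (ENSMUSG00000040354, chromosome 10 from 127296221 to 127311786), for methionine, was at 58.2, 39.2, 50.7, 38.8 and 60.6 CPM over libraries 1 to 5, then 40.5, 51.0, 41.9 and 42.6 CPM over libraries 6 to 9, so that library 9 exceeded library 8 by less than 1 CPM. It overlaps *Ddit3*, the gene of the stress-induced factor CHOP, by 68 exon bases on the opposite strand. *Iars* (ENSMUSG00000037851, chromosome 13 from 49682100 to 49734267), for isoleucine, had the widest range of the cytosolic genes over the 8 libraries other than library 3, a ratio of 1.77 between the highest and the lowest. It was at 71.2, 51.3, 69.3, 50.03 and 66.1 CPM over libraries 1 to 5, then 51.0, 58.1, 46.3 and 40.3 CPM over libraries 6 to 9. Libraries 1, 3, 5 and 7 were the highest, but library 9 was the lowest of all, so that *Iars* did not share the order of the other 7 genes named here.

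**Figure D2:**
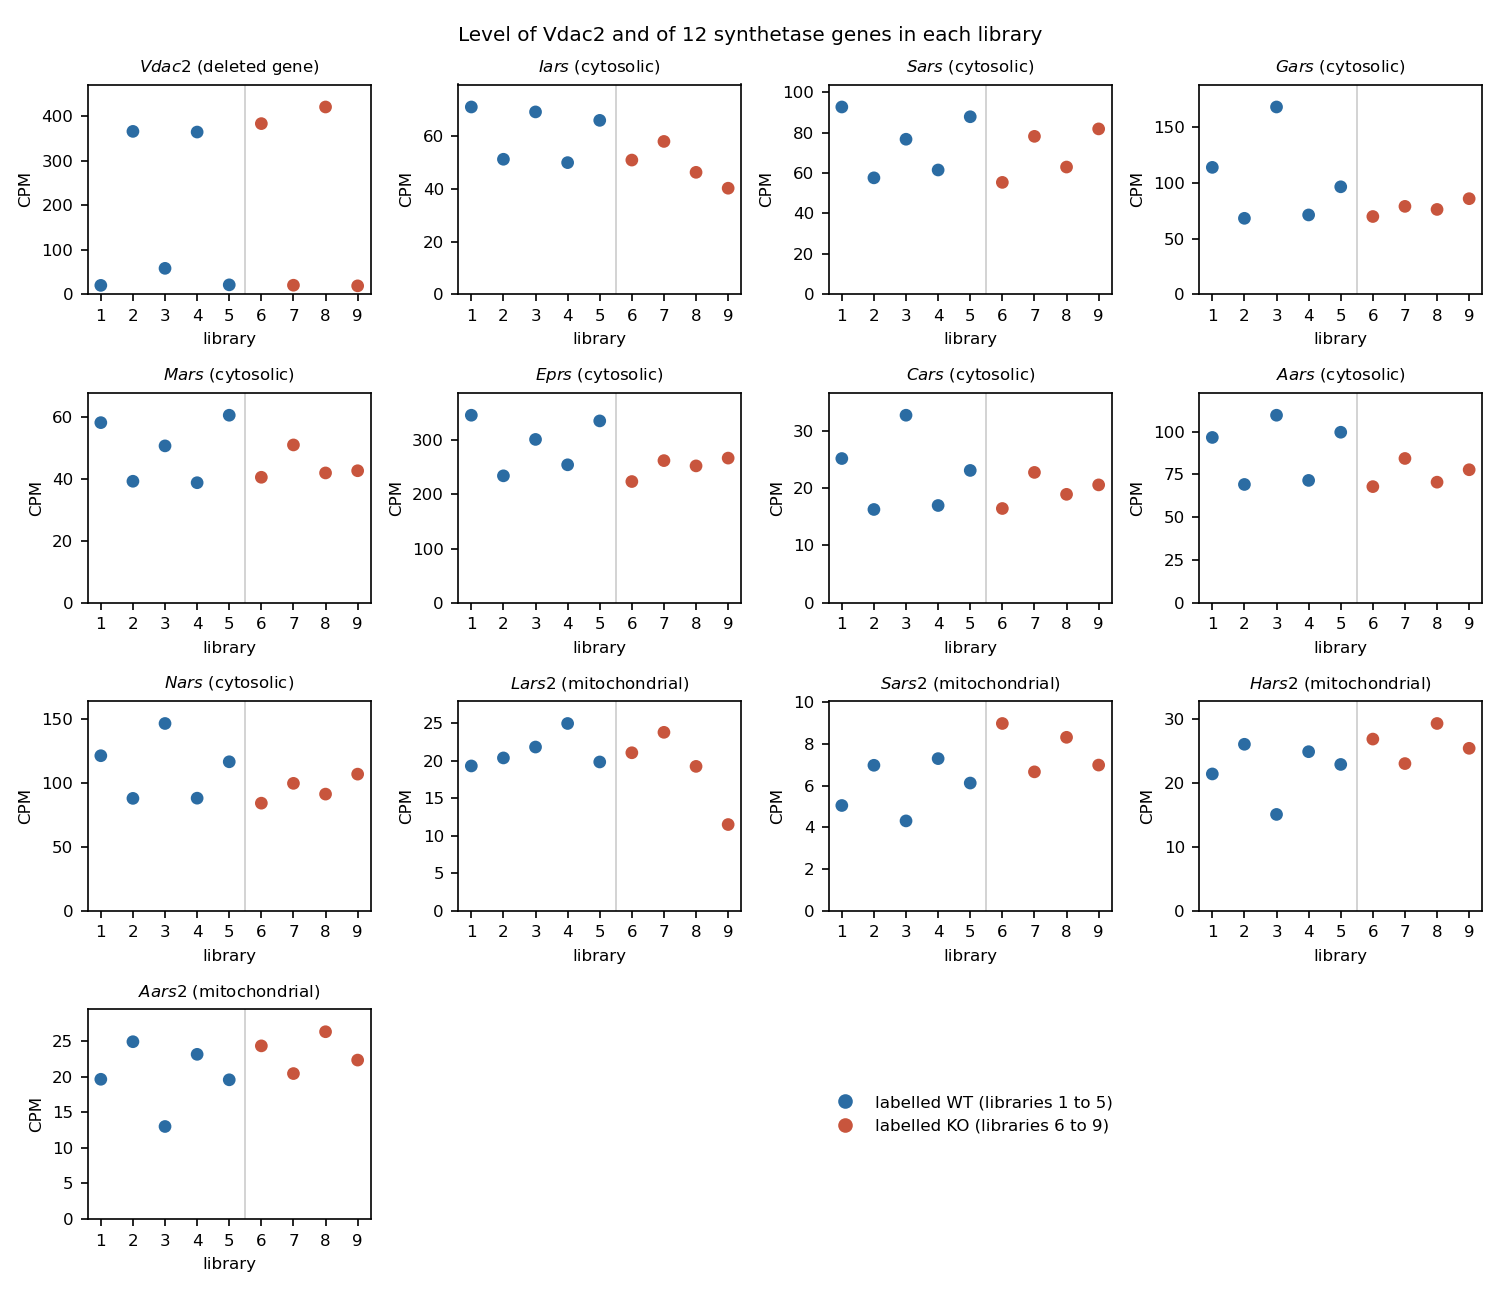
Each panel gives the CPM (vertical axis, from 0) of a gene in libraries 1 to 9 (horizontal axis), first *Vdac2* and then the 8 cytosolic and 4 mitochondrial synthetase genes with the widest range, coloured by genotype label. *Sars*, *Cars* and *Nars* are lowest in libraries 2, 4, 6 and 8, where *Vdac2* is between 365 and 421 CPM, whereas *Aars2* is highest in those libraries.

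Of the remaining cytosolic genes, *Yars*, for tyrosine, was at 27.8 to 32.0 CPM in libraries 1, 5, 7 and 9 and at 24.2 to 25.96 CPM in 2, 4, 6 and 8. The synthetase genes of the multi-synthetase complex did not share a single order. *Eprs* and *Mars* had the order described, whereas *Dars*, *Kars*, *Lars*, *Qars* and *Rars*, for aspartate, lysine, leucine, glutamine and arginine, had overlapping values in those libraries. *Kars* was at 97.3 to 120.3 CPM in libraries 1, 5, 7 and 9 and at 99.0 to 111 CPM in the others, and *Dars* at 96.6 to 118 CPM and 93.4 to 98.0 CPM. *Farsa* and *Farsb*, which encode the subunits of cytosolic phenylalanyl-tRNA synthetase, were at 15.5 to 18.9 and 53.7 to 61.8 CPM in libraries 1, 5, 7 and 9, and at 15.8 to 18.5 and 54.2 to 61.6 CPM in 2, 4, 6 and 8, and so overlapped almost fully. *Wars*, for tryptophan, overlapped as well, at 28.9 to 35.4 and 31.5 to 34.6 CPM.

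Library 3 exceeded the other 8 libraries in 11 of the 21 cytosolic genes (37.7% of all tested genes). *Vars*, for valine, was at 35.9 CPM in library 3 and at 11.9 to 14.9 CPM elsewhere, *Rars* at 93.2 CPM against 42.4 to 50.4 CPM, and *Hars*, for histidine, at 76.9 CPM against 37.5 to 50.9 CPM. Among the cytosolic genes, library 3 was below the other 8 libraries only in *Tarsl2* (37.4% of all tested genes were below). *Tarsl2*, another cytosolic threonyl-tRNA synthetase gene, was at 16.2 CPM in library 3 and at 45.9 to 61.3 CPM in the others. *Tars* was at 70.1 CPM against 38.2 to 48.8 CPM. For threonine, therefore, the genes of the cytosolic enzymes differed in opposite directions in that library.

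Library 3 was below the other 8 libraries in 15 of the 17 mitochondrial genes (37.4% of all tested genes), all except *Lars2* and *Pars2*. *Fars2*, for phenylalanine, was at 23.2 CPM in library 3 and at 49.2 to 63.8 CPM in the others, and *Iars2*, the most abundant mitochondrial member per length, was at 94.1 CPM against 145 to 181 CPM. Of the exon bases of *Iars2*, 22.9% are shared with *Rab3gap2* on the opposite strand. Between the highest and the lowest of the other 8 libraries, the median ratio was 1.31 for the mitochondrial and 1.33 for the cytosolic genes. It was 1.46 for all tested genes, which were not matched to the members for level.

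*Lars2* (ENSMUSG00000035202, chromosome 9 from 123366927 to 123462666), for leucine, had the widest range of the mitochondrial genes, at 19.3, 20.4, 21.8, 25.0 and 19.8 CPM over libraries 1 to 5, then 21.1, 23.8, 19.2 and 11.5 CPM over libraries 6 to 9. That range rested on library 9. *Sars2* (ENSMUSG00000070699, chromosome 7 from 28741992 to 28753871), the mitochondrial partner of *Sars*, was at 5.05, 6.98, 4.32, 7.30 and 6.13 CPM over libraries 1 to 5, then 8.99, 6.67, 8.33 and 6.99 CPM over libraries 6 to 9. Its lowest values were in libraries 3, 1, 5 and 7, where *Sars* was among the highest, and libraries 9 and 2 were level.

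*Aars2* (ENSMUSG00000023938, chromosome 17 from 45506841 to 45520843), the partner of *Aars*, was at 19.6, 24.9, 12.999, 23.1 and 19.6 CPM over libraries 1 to 5, then 24.3, 20.4, 26.3 and 22.3 CPM over libraries 6 to 9. *Hars2* (ENSMUSG00000019143) was at 21.4, 25.999, 15.0, 24.8 and 22.9 CPM over libraries 1 to 5, then 26.8, 23.0, 29.2 and 25.4 CPM over libraries 6 to 9. It shares 195 exon bases with *Hars*, on opposite strands. For alanine and methionine the cytosolic and mitochondrial genes had opposite orders. *Mars2* was at 23.8 to 25.9 CPM in libraries 1, 5, 7 and 9 and at 28.0 to 30.4 CPM in 2, 4, 6 and 8. The partners of *Cars*, *Nars* and *Yars* had overlapping values, *Cars2* at 34.9 to 46.3 and 38.3 to 46.4 CPM, *Nars2* at 20.7 to 22.6 and 22.1 to 24.2 CPM, and *Yars2* at 22.8 to 28.0 and 26.2 to 29.95 CPM.

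**Figure D3:**
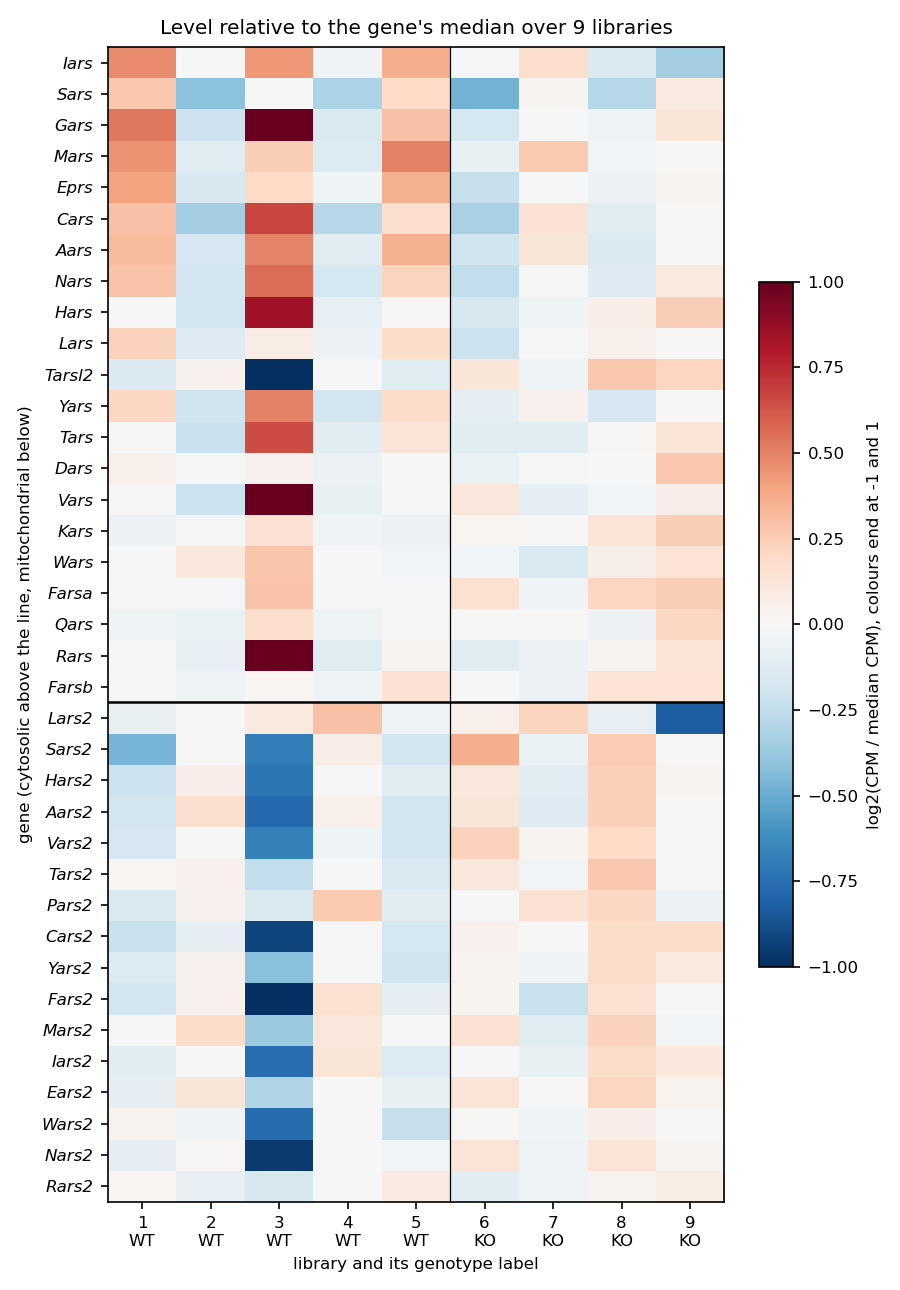
The map shows log2 of each gene's CPM over its own median in the 9 libraries, for 37 of the 38 genes, with cytosolic genes above the line, mitochondrial genes below it, and libraries 1 to 9 from left to right with their genotype label. Library 3 is high in most cytosolic and low in most mitochondrial genes, and *Tarsl2* is the only cytosolic gene in which it is the lowest library. The first 8 cytosolic rows except *Iars* are lower in libraries 2, 4, 6 and 8 than in 1, 5, 7 and 9.

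Per kilobase of exon, the cytosolic genes were the more abundant, with a median of 12.5 CPM per kb over genes against 4.68 CPM per kb for the mitochondrial genes. With the union of a gene's exons as its length, the highest members by the median over libraries were *Gars* (25.3 CPM per kb), *Nars* (22.8), *Kars* (22.7), *Dars* (22.4) and *Farsb* (21.4), followed by *Lars* (19.0). Among the first 5 the ranges over libraries overlapped, from 21.9 to 53.9 CPM per kb in *Gars* and from 20.5 to 23.6 CPM per kb in *Farsb*, but *Gars* was above *Nars* and *Farsb* in 9 of 9 libraries, above *Dars* in 8 and above *Kars* in 6. *Nars* was above *Kars* in 4 of 9 libraries, above *Dars* in 4 and above *Farsb* in 5, so that its place among them is not resolved. The order also depended on the length used. With the longest transcript, *Eprs* came first at 46.6 CPM per kb (14.5 with the union of exons), followed by *Dars* (44.9), *Kars* (41.8), *Nars* (36.2) and *Gars* (33.2). *Iars2* was the only mitochondrial gene among the 8 highest, at 17.9 CPM per kb. The lowest were *Wars2* (1.63 CPM per kb) and *Pars2* (1.64 CPM per kb), for tryptophan and proline, and they were also the lowest with the longest transcript (2.1997 and 1.66 CPM per kb). *Lars2* followed at 1.84 CPM per kb with the union of exons but was at 5.23 CPM per kb with the longest transcript. The lowest cytosolic gene was *Vars* with either length (2.46 and 3.34 CPM per kb).

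The promoters of the members were searched for the core of the C/EBP-ATF response element, TGATGNAA on either strand, in windows from 250 bases before to 50 bases after a start site (RefSeq, GRCm38.p6). A window was found for 28 of the 38 genes, and the other 10 were not searched. The motif was present in 5 of 14 cytosolic genes and in 0 of 14 mitochondrial genes, and in 4.51% of the 27025 genes with a window. The match nearest the start site is shown for each gene, 5′ to 3′ on the strand of the gene with the 8 bases of the motif in capitals, because many cytosolic synthetase genes are known ATF4 targets. A capital run that begins with TT is the motif read on the opposite strand.
Aars: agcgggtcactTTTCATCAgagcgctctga
Gars: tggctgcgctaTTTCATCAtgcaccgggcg
Iars: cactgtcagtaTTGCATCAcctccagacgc
Tars: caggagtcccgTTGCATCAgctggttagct
Yars: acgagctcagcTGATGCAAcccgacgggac

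Counted from the start site, with negative numbers upstream, the *Aars* match begins at 9, in chr8:111033840-111033869. The *Gars* match begins at -30, in chr6:55037960-55037989, and that of *Tars* at -15, in chr15:11399655-11399684 of the minus strand. The *Iars* match begins at 7, in chr13:49682126-49682155, and that of *Yars* at 3, in chr4:129189895-129189924. *Aars*, *Gars* and *Yars* were among the 8 cytosolic genes whose values in libraries 1, 5, 7 and 9 all exceeded those in 2, 4, 6 and 8, whereas *Iars* and *Tars* were not, and *Sars*, *Mars* and *Eprs* had that order without a match in this window. A match is a description of letters and not of a binding site.

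The comparison the study was designed for is that of KO with WT. Of the 38 synthetase genes, 0 passed an adjusted p of 0.05 between labels in edgeR's test, while 9 of the 16322 tested genes (0.0551%) passed it, 0.0123% with higher and 0.0429% with lower counts in the libraries labelled KO. At an unadjusted p under 0.05, 0 of the 38 were called as well, against 6.11% of the tested genes. DESeq2 and limma's voom with library weights each called 0 of the 38, while over all genes they called 62 and 77. The 9 genes that passed edgeR's test included the sex-linked *Xist* (log2 fold change 12.4) and *Ddx3y* (-13.9). With a filter of at least 10 counts in every library, 0 genes passed. The lowest adjusted p of any member was 0.68. The cytosolic genes had a median log2 fold change of -0.14, with 15 of 21 below 0, and the mitochondrial genes one of 0.19, with 16 of 17 above 0, while over all tested genes the median was -0.018 and 47.3% were above 0. Both medians moved by more than 1.5 times without library 3, labelled WT, to -0.018 and 0.081. The cytosolic median also moved that far without library 2, to -0.21. Signs of single genes turned as well. Without library 3, *Vars* went from -0.35 to 0.076, and *Rars*, *Hars* and *Tars* also rose above 0. *Mars2* and *Rars2* fell below 0 in that fit, and *Dars*, *Qars* and *Rars2* did so without library 9. *Vdac2* does not separate these labels.

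Among the cytosolic genes, *Gars* had the lowest log2 fold change in the fit of all 9 libraries, with means of 104 ± 40.7 CPM under the WT label (SD, n = 5) and 77.7 ± 6.63 CPM under the KO label (SD, n = 4). The log2 fold change came to -0.42 with a standard error of 0.25 (edgeR, adjusted p = 0.68), and without library 3 it was -0.18, nearer 0 than that of *Iars* (-0.29). *Tarsl2* had a log2 fold change of similar size in the other direction, 0.41, and without library 3 it was 0.19. *Iars* averaged 61.6 ± 10.1 and 48.9 ± 7.51 CPM, and its log2 fold change came to -0.33 with a standard error of 0.15 (edgeR, adjusted p = 0.68). The other cytosolic genes named above had log2 fold changes of -0.25 for *Aars*, -0.23 for *Nars*, -0.23 for *Eprs*, -0.22 for *Cars*, -0.17 for *Mars* and -0.11 for *Sars*, with adjusted p between 0.68 and 0.82. Several of these values moved by more than 1.5 times toward 0 when a library was left out. *Cars* was at -0.059 without library 3 and -0.14 without library 6, *Nars* at -0.12 without library 3, and *Mars* at -0.091 without library 5 and -0.11 without library 1. *Sars* ranged from -0.20 without library 9 to -0.017 without library 6, and moved by that much without any of the libraries except library 3. *Sars* averaged 75.2 ± 15.5 CPM under the WT label and 69.5 ± 12.5 CPM under the KO label, so that the difference between labels was smaller than the spread within each.

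Among the mitochondrial genes, *Sars2* averaged 5.96 ± 1.27 CPM under the WT label and 7.75 ± 1.10 CPM under the KO label (SD, n = 5 and n = 4), and its log2 fold change came to 0.38 with a standard error of 0.18 (edgeR, adjusted p = 0.68). The log2 fold change was 0.25 ± 0.16 for *Hars2*, 0.22 ± 0.18 for *Aars2* and -0.17 ± 0.19 for *Lars2* (± standard error), with adjusted p between 0.68 and 0.76. Without library 3 the values of *Hars2* and *Aars2* were 0.13 and 0.092, and that of *Lars2* was 0.0081 without library 9, -0.11 without library 4 and -0.30 without library 7. *Cars2* was the only one of the 38 genes whose labelled groups did not overlap, at 21.5 to 40.8 CPM in the libraries labelled WT and 40.9 to 46.4 CPM in those labelled KO, and 2.30% of all tested genes had no overlap in this direction (2.06% in the other). Its log2 fold change came to 0.35 with a standard error of 0.17 (edgeR, adjusted p = 0.68), and without library 3 it was 0.22.

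**Figure D4:**
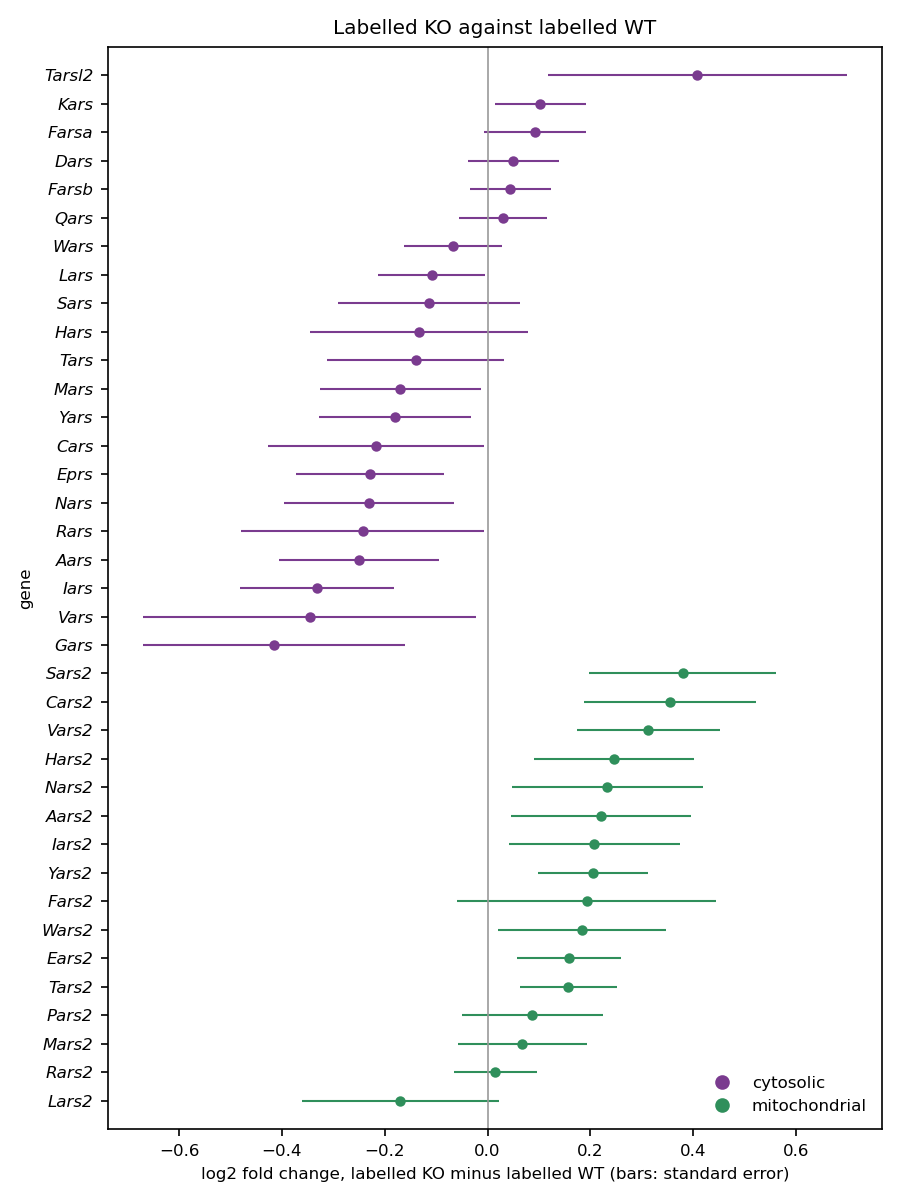
Points are log2 fold changes of the libraries labelled KO against those labelled WT (horizontal axis) from edgeR's fit over all genes, drawn for 37 of the 38 members, and bars are their standard errors. Of the cytosolic genes 15 of 21 lie below 0, and among the mitochondrial genes drawn *Lars2* alone lies below it. None of these genes had an adjusted p under 0.05. In a fit without library 3, not drawn, *Vars*, *Rars*, *Hars* and *Tars* lay above 0 and *Mars2* and *Rars2* below it.

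Other genes of tRNA charging were taken from a list of 13, all tested, of which 0 had an adjusted p under 0.05 between labels (0.0551% of all tested genes). The scaffold genes of the multi-synthetase complex had log2 fold changes of 0.045 for *Aimp1*, -0.086 for *Aimp2* and -0.31 for *Eef1e1*, and the genes of the mitochondrial glutaminyl-tRNA amidotransferase of 0.050 for *Qrsl1*, 0.23 for *Gatb* and 0.0068 for *Gatc*. Leaving out library 3 brought it to 0.0093 for *Eef1e1* and 0.057 for *Gatb*, and it turned to 0.061 for *Aimp2* and -0.13 for *Qrsl1*. Single libraries also decided the values near 0. With each library left out, that of *Gatc* ranged from -0.055 (without library 6) to 0.052 (without library 9), that of *Aimp1* from -0.016 (without library 9) to 0.11 (without library 6), and that of *Qrsl1* was 0.0054 without library 6. *Aimp1* was at 48.4, 42.9, 46.2, 43.8 and 48.9 CPM over libraries 1 to 5, then 41.2, 47.1, 48.2 and 53.5 CPM over libraries 6 to 9, and the 2 sets of libraries overlapped. *Eef1a1*, which encodes a form of the factor that brings charged tRNA to the ribosome, was at 349.95, 223, 998.5, 260 and 326 CPM over libraries 1 to 5, then 221, 324, 204 and 430.5 CPM over libraries 6 to 9. It was the 1 gene of this list with all of libraries 1, 5, 7 and 9 above 2, 4, 6 and 8, close to the 7.16% of all tested genes, and 3 had the reverse order (4.93% of all tested genes). *Tufm*, its mitochondrial counterpart, was 1 of those 3, at 11.8, 13.2, 6.50, 13.05 and 10.6 CPM over libraries 1 to 5, then 14.2, 12.3, 15.0 and 12.5 CPM over libraries 6 to 9. *Eef1a2*, the gene of another form of the cytosolic factor, had neither order. It was at 414 to 487 CPM in libraries 1, 5, 7 and 9 and at 461 to 497 CPM in 2, 4, 6 and 8. Library 3 was its lowest, at 241 CPM, whereas library 3 was the highest in *Eef1a1*.

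Of 10 genes of the amino acid and integrated stress response, 0 had an adjusted p under 0.05 between labels (0.0551% of all tested genes), and 5 had all of libraries 1, 5, 7 and 9 above 2, 4, 6 and 8 (7.16% of all tested genes). *Atf4* was at 91.0, 55.3, 98.7, 62.8 and 113.6 CPM over libraries 1 to 5, then 73.9, 86.1, 73.1 and 83.1 CPM over libraries 6 to 9. *Asns*, the asparagine synthetase gene and a target of ATF4, was at 16.1, 2.49, 18.8, 3.12 and 17.3 CPM over libraries 1 to 5, then 3.24, 13.4, 2.97 and 7.32 CPM over libraries 6 to 9. The libraries in which *Asns* was highest were those in which *Sars*, *Nars* and *Aars* were highest, with library 3 on top in *Asns*, *Nars* and *Aars*. Of the 5 genes *Asns* alone had library 3 on top, and *Atf4* was highest in library 5. Library 3 was the lowest of all 9 libraries in *Ddit3*, at 7.98 CPM against 11.8 to 20.04 CPM, and it held 11.8 CPM of *Atf5* against 19.6 to 38.9 CPM in libraries 1, 5, 7 and 9, and 1.51 CPM of *Trib3* against 1.71 to 8.27 CPM. Over the whole list of 10, library 3 was the highest of the 9 libraries in 6 genes (37.7% of all tested genes were above the other 8 there) and the lowest in 1. The 6 were *Asns*, the kinase genes *Eif2ak1*, *Eif2ak2*, *Eif2ak3* and *Eif2ak4*, and *Atf3*, a stress-induced transcription factor gene at 28.5 CPM in library 3 and at 3.10 to 6.83 CPM elsewhere. The kinase genes and *Atf3* were not among the 5, which were *Atf4*, *Atf5*, *Ddit3*, *Trib3* and *Asns*.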

How the data were processed

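Total RNA was depleted of rRNA, and stranded libraries were sequenced as 50-base single-end reads. The authors deposited raw counts of reads per Ensembl gene, not normalized, for 9 libraries; the submitters' processing notes name STAR 2.7.2c, featureCounts 1.6.3 and GRCm38, and neither the strand setting nor the handling of multi-mapped reads is given in the sources used here. Libraries were grouped by the deposited genotype label, and none was moved. The study's reporting summary counts n in mice and mentions a WT sample removed for poor RNA quality, without saying which. All libraries labelled WT were kept in the main fit here, so their set may differ from the one the study compared.

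Counts were tested over 16322 genes with edgeR 4.0.16 in R 4.3.3 (filterByExpr, TMM, robust quasi-likelihood F-test, Benjamini-Hochberg adjustment). A standard error is the size of a log2 fold change over the root of its F. Alternatives used DESeq2 1.42.0, limma 3.58.1, RLE scaling, other filters and each library left out. Positions and exon lengths are from GENCODE M21 (GRCm38). The fit was tested on simulated data, and the outcome is not reported here. Per-library values were given for *Vdac2* and for the 8 cytosolic and 4 mitochondrial members with the largest ratio of highest to lowest CPM outside library 3. The members and lists were chosen with earlier results of these data known. The values of 1 member, which is kept in the counts and medians, and 1 promoter sequence are not reported here.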

Additional observations from a re-analysis of the deposited data

Results flagged for a closer look

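In each labelled group of each member reported here (74 groups), the gap of the highest or the lowest library to its nearest neighbour was compared with the range of the group, which by chance marks about 1 group in 20. A library far from the others was found in 7 groups, all of them library 3 among the libraries labelled WT, in 6 cytosolic genes and 1 mitochondrial gene. The share of such groups over all tested genes was not computed. Library 3 was above the other 8 libraries in 37.7% of all tested genes and below them in 37.4%. The flags are therefore not read as a trait of the synthetase genes. Library 3 was higher than the other 4 libraries in *Vars* (35.9 CPM against 11.9 to 13.9 CPM), *Rars* (93.2 against 42.5 to 47.0 CPM), *Hars* (76.9 against 37.5 to 43.3 CPM), *Farsa* (19.3 against 15.8 to 15.9 CPM) and *Kars* (112 against 97.3 to 100.1 CPM). It was lower in *Tarsl2* (16.2 against 45.9 to 52.3 CPM) and *Nars2* (11.4 against 20.7 to 22.3 CPM). The low cardiomyocyte and high fibroblast marker sums of library 3 stand beside these values, and their part in them was not tested.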

How the results depend on the processing

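No paired analysis was possible because the sample labels give no pairing between libraries labelled WT and libraries labelled KO. No member had an adjusted p under 0.05 in any of the 14 alternative fits (lowest 0.21, highest 0.999), and 167 of 168 log2 fold changes of the 12 named members kept their direction. The exception was *Lars2*, which ranged from -0.30 to 0.0081 with each library left out and changed sign without library 9. Members outside those 12 changed sign too. Without library 3, *Vars*, *Rars*, *Hars* and *Tars* rose above 0 (0.076, 0.033, 0.092 and 0.023). *Mars2* and *Rars2* fell below 0 in that fit (-0.019 and -0.023). *Dars*, *Qars* and *Rars2* fell below 0 without library 9 (-0.028, -0.028 and -0.013). The log2 fold change of *Vdac2* ranged from -0.23 to 0.86 with each library left out. Over all genes the number called went from 9 to 62 with DESeq2, 77 with voom and quality weights and 0 with at least 10 counts in every library (a filter that removes genes at 0 in a label), and from 5 (without library 1, 2 or 4) to 62 (without library 3) with each library left out. With each library left out, the median log2 fold change ranged from -0.21 to -0.018 in cytosolic and from 0.081 to 0.25 in mitochondrial members. With voom and quality weights these medians were -0.026 and 0.11. The cause of these shifts was not tested. Within the libraries labelled WT, the order of 1 and 5 above 2 and 4 was held by 18 cytosolic and 1 mitochondrial members. With scaling by total counts only, the level of library 3 was 0.70 for cytosolic and -0.23 for mitochondrial members, and 12 cytosolic members, in place of 8, had libraries 1, 5, 7 and 9 all above 2, 4, 6 and 8, an order then held by 11.3% of all tested genes. With the longest transcript as length, the median levels were 19.5 and 6.61 CPM per kb. The longer motif TGATGNAAT was present in 3 of 14 cytosolic and 0 of 14 mitochondrial members searched, and in 1.08% of the 27025 genes with a window.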
